A study of Mus musculus with 8 samples.

Results

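Complement component genes were followed through RNA-seq of whole mouse lung with and without Wfdc2. The set holds 9 genes chosen by name: the C1q chain genes C1qa, C1qb and C1qc, the convertase genes C4b, C2 and Cfb, the central component C3, and the receptor genes C3ar1 and C5ar1. Of the 25965 genes in the deposited table, 8 of the 9 were found under their exact symbol. C2 was found only in rows with a numbered suffix and was read through the row that overlaps the RefSeq gene (described with Cfb).

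Complement is a cascade of plasma and tissue proteins that marks particles for uptake. C1q, built from its A, B and C chains, recognises antibody and other ligands and starts the classical route, whose convertase is assembled from pieces of C4 and C2. Factor B forms the convertase of the alternative route, both convertases cleave C3, and the peptides C3a and C5a released along the cascade act on the receptors encoded by C3ar1 and C5ar1. Tissue macrophages are a main source of C1q, whereas liver makes most circulating C3, C4 and C2, and epithelial and stromal cells make some of these locally.

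Lungs were taken at E18.5, before birth, and at P1.5, after birth. Control mice were Wfdc2 +/+, and null mice were Wfdc2 GFP/GFP, in which a cassette carrying an IRES and GFP, introduced by targeting of TT2 embryonic stem cells, replaces part of Wfdc2 on both alleles. There were 2 libraries, from separate animals, in each of the 4 groups, and their replicate numbers are 1 and 2 in every group. No cell type was isolated, so fewer cells of a type and less RNA per cell cannot be told apart.

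Between 19457647 and 37209332 reads were counted per library, and 3 reads, taken as the limit of detection, correspond to between 0.0806 and 0.154 RPM (reads per 1000000 reads of the library). Wfdc2 itself held 8038 to 32845 reads in the +/+ libraries and 0 to 12 in the GFP/GFP libraries. In every group replicate 1 carried reads of Xist (4121 to 90980) and replicate 2 reads of the Y-linked Ddx3y (972 to 2175), so sex moves with the replicate number and not with genotype. One GFP/GFP library at E18.5, replicate 1, stood apart. Its lung epithelium markers summed to 8694 RPM against 18986 to 24189 RPM in the other E18.5 libraries. Of that sum 6444 RPM were Sftpc, a surfactant protein gene. Epcam was highest there, at 158 RPM against 102, 118 and 132 RPM, and Nkx2-1 had 339 RPM against 225, 267 and 347 RPM. The remaining markers of the list had their lowest E18.5 level there. In that library genes spanning over 50 kb lay 0.73 above their mean of all libraries on the log2 scale. At P1.5 the same long genes lay 0.65, 0.64 and 0.44 below that mean in +/+ replicate 1, GFP/GFP replicate 1 and GFP/GFP replicate 2, against 0.24 above it in +/+ replicate 2.

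Values below are RPM, from reads recovered out of the deposited log2 RPKM, with replicate 1 before replicate 2. Fold changes are differences of group means of log2 RPKM (RPM per kilobase of gene span) with their standard error (SE) from limma, fitted to all 8 libraries, and adjusted p-values are Benjamini-Hochberg values over the 15627 genes whose mean reached 0.05 RPKM. All 9 complement genes passed that filter. With 2 libraries against 2, no exact test can pass 0.05, so a comparison rests on the spread limma shares over genes and groups.

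After birth, none of the 9 complement genes passed the adjusted threshold between genotypes, but they did not lie on the same side. C4b, C1qb, Cfb and C1qc were higher in both GFP/GFP libraries than in both +/+ libraries, C2 and C3 were lower in both, and the libraries of C1qa, C3ar1 and C5ar1 overlapped. The 4 genes with both libraries above compare with 12.6% of all genes tested, and the 2 with both below with 26.9%. By limma 0 of 9 were called at an adjusted p under 0.05 (0.0128% of all genes, 2 genes, both lower), 3 of the 9 had an unadjusted p under 0.05 against 10.9% of all genes (1710), and limma's voom on the recovered reads called 0 genes. The median change of the 9 was 0.47 on the log2 scale, with 7 higher and 2 lower, against a median of -0.20 over all genes tested.

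**Figure D1:**
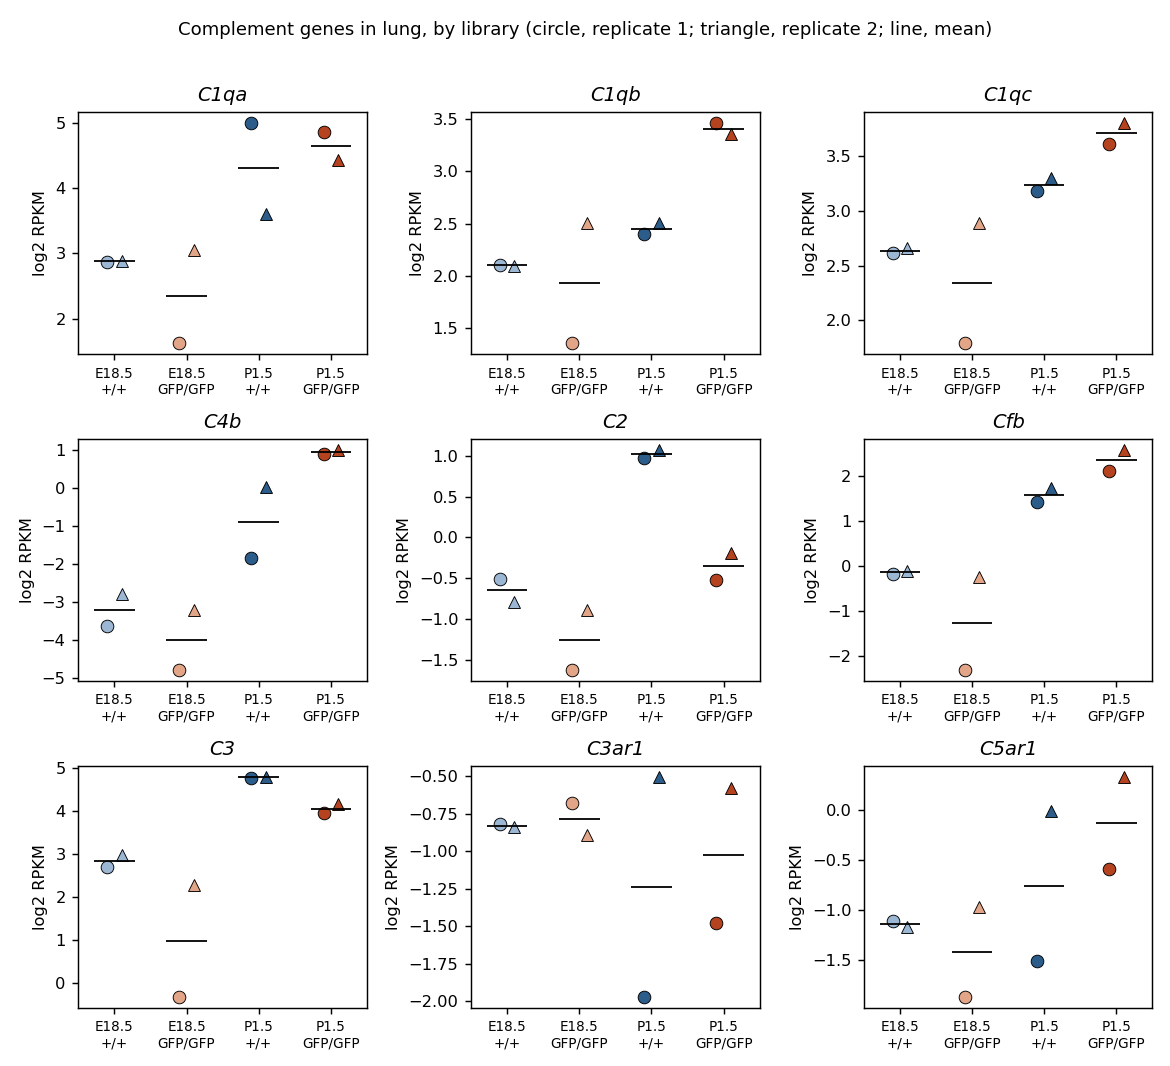
Each panel plots log2 RPKM of a complement gene (y axis, scaled per panel) in the 8 libraries by stage and genotype (x axis), with a circle for replicate 1, a triangle for replicate 2 and a line at the mean of 2. The P1.5 GFP/GFP points of C1qb, C1qc, C4b and Cfb sit above the P1.5 +/+ points, those of C2 and C3 sit below, and replicate 1 of E18.5 GFP/GFP is the lowest E18.5 point in every panel but C3ar1.

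The C1q genes lie side by side on the minus strand of chromosome 4 within 18.7 kb (mm10, C1qb 136880129 to 136886187, C1qc 136889804 to 136893065, C1qa 136895917 to 136898803). RefSeq promoters were at hand for C1qb and C1qc, and the 100 bases before each start are shown because both genes moved closely together over the libraries (Pearson's r 0.95 over 8 libraries). The RefSeq start of C1qc, 136892914, lies inside the deposited span of C1qc, and so does the stretch shown for it.
C1qb, chr4:136886201-136886300, GRCm38.p6, minus strand: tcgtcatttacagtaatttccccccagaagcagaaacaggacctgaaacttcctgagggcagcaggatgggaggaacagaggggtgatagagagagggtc
C1qc, chr4:136892915-136893014, GRCm38.p6, minus strand: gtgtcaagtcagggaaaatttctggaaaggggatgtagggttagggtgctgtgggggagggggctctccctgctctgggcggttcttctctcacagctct
None of the 5 motifs searched on both strands (TTCNNNGAA, TTNNGCAA, GGG followed after 3 bases of any kind by TTCC, GAAA followed after 2 bases of any kind by GAAA, and TATAAA, found in 8.3%, 10.8%, 5.56%, 3.44% and 13.6% of 32851 promoters) was in the promoter windows of either gene, which run from 250 bases before to 50 bases after the start.

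C1qb, the B chain, stood at 26.1 and 25.9 RPM in +/+ lungs at E18.5 and at 15.5 and 34.3 RPM in GFP/GFP lungs. At P1.5 it stood at 32.0 and 34.3 RPM in +/+ lungs and at 67.0 and 62.0 RPM in GFP/GFP lungs. The P1.5 groups were apart, with replicates close together, whereas the E18.5 GFP/GFP libraries fell on either side of the +/+ libraries. Its change between genotypes at P1.5 was 0.96 on the log2 scale (SE 0.39, 1.94-fold, limma adjusted p 0.436).

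C1qc, the C chain, had 20.0 and 20.6 RPM in +/+ and 11.3 and 24.1 RPM in GFP/GFP lungs at E18.5. After birth it had 29.5 and 32.0 RPM in +/+ and 39.8 and 45.5 RPM in GFP/GFP lungs, again without overlap. The difference was smaller than for C1qb, at 0.47 on the log2 scale (SE 0.38, limma adjusted p 0.706).

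C1qa, the A chain, broke this order in a +/+ library. It had 21.1 and 21.2 RPM in +/+ and 8.92 and 23.9 RPM in GFP/GFP lungs at E18.5, then 92.2 and 34.9 RPM in +/+ and 83.2 and 61.8 RPM in GFP/GFP lungs at P1.5. The P1.5 +/+ libraries lay on either side of both GFP/GFP libraries, and the change was 0.34 (SE 0.58, limma adjusted p 0.836). Without +/+ replicate 2 the change of C1qa turned to -0.36.

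Because the chains are used in equal number in C1q, reads of C1qa and C1qc were set against those of C1qb within each library. C1qc held between 0.594 and 0.933 reads per read of C1qb in all 8 libraries. C1qa held 0.575 to 0.820 reads per read of C1qb at E18.5, and 1.02, 1.24 and 0.998 in 3 of the P1.5 libraries, but 2.88 in P1.5 +/+ replicate 1. That library stood apart in C1qa but not in C1qc. C1qa shared no 36-base stretch with C1qb, so reads of that length from their transcripts could be told apart.

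**Figure D2:**
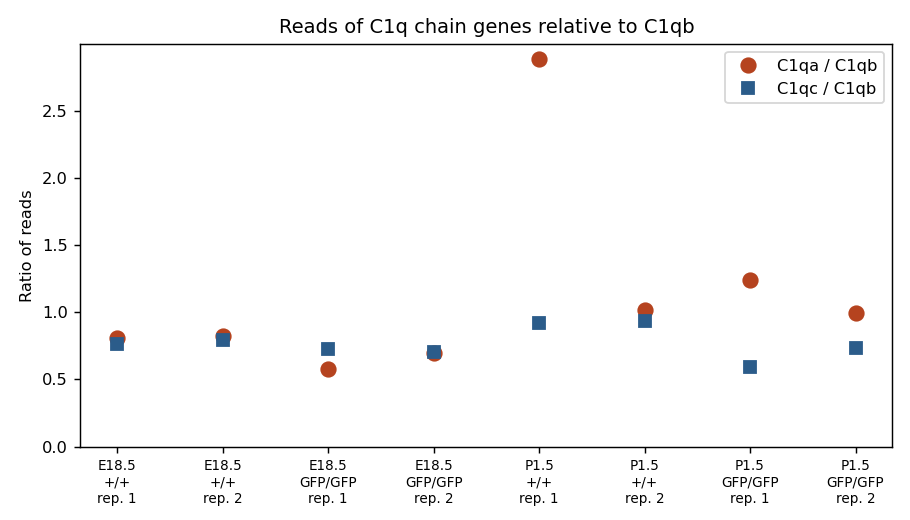
Reads of C1qa (circles) and C1qc (squares) divided by reads of C1qb (y axis, linear) are plotted for each of the 8 libraries (x axis). The C1qc ratio stays between 0.594 and 0.933, and the C1qa ratio stands out at 2.88 in P1.5 +/+ replicate 1.

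Macrophage markers were read beside the C1q genes. All 12 were found and tested and none was without reads in a library. At P1.5 3 were higher in both GFP/GFP libraries than in both +/+ libraries (12.6% of all genes) and 2 lower in both (26.9%). The sum of the 12 ran from 844 to 1322 RPM in P1.5 +/+ and from 1343 to 1400.5 RPM in P1.5 GFP/GFP lungs. At E18.5 it ran from 790.5 to 857 RPM in +/+ and from 338 to 638 RPM in GFP/GFP lungs. Lyz2, the lysozyme gene, gave 25.1% of this sum in E18.5 GFP/GFP replicate 1 and most of it in each other library. It had 11763 and 19503 reads in +/+ and 25816 and 32467 in GFP/GFP libraries at P1.5. Without Lyz2 the other 11 summed at P1.5 to 302 and 320 RPM in +/+ and 228 and 291 RPM in GFP/GFP lungs. Part of the gap in this reverse order came from Chi3l3, another of the 11, which had 85.5 RPM in +/+ replicate 1 and 10.8 RPM in +/+ replicate 2. The place of +/+ replicate 1 above both GFP/GFP libraries rested on it. In P1.5 GFP/GFP lungs Chi3l3 had 21.1 and 11.7 RPM. At E18.5 the 11 summed to 237 and 236 RPM in +/+ and to 253 and 241 RPM in GFP/GFP lungs. Higher in both P1.5 GFP/GFP libraries were Lyz2 (0.59 on the log2 scale), Cd68, a lysosomal membrane protein gene (0.72), and Fcgr1, an Fc receptor gene (1.18). Lower in both were Mertk, which encodes a receptor for the uptake of dying cells (-1.77, unadjusted p 0.00660, limma adjusted p 0.309), and Cx3cr1, the fractalkine receptor gene (-0.44). Mertk and Cx3cr1 both span over 50 kb, and genes of that span differed in level between the P1.5 libraries. The part of gene span in these changes was not tested. Csf1r, which encodes the receptor for the macrophage growth factor CSF1, had a change of -0.31, and none of the 12 passed the adjusted threshold. The part of macrophage number in the C1q values was not tested.

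C4b encodes C4, the substrate of the activated C1 complex, and lies on chromosome 17 (mm10, 34728380 to 34743882, minus strand). It was scarce before birth, with 1.25 and 2.25 RPM in +/+ and 0.564 and 1.68 RPM in GFP/GFP lungs, which are 43, 70, 21 and 49 reads. At P1.5 it had 4.37 and 16.0 RPM in +/+ and 29.0 and 31.4 RPM in GFP/GFP lungs. The P1.5 GFP/GFP libraries were alike and above both +/+ libraries, which themselves differed more from each other on the log2 scale than those of any other member at that stage. The change was 1.85 on the log2 scale (SE 0.74, 3.61-fold, 95% interval 0.13 to 3.58), the most positive of the 9, with an unadjusted p of 0.0384 and a limma adjusted p of 0.433.

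A near-identical gene copy and reads of liver genes were checked beside C4b. Of the 5344 stretches of 36 bases in the longest C4b transcript, 2394 (44.8%) are also in C4a, which encodes the sex-limited form of C4, so reads between these genes may be misplaced. C4a held 41 and 11 reads in P1.5 +/+ and 6 and 15 reads in P1.5 GFP/GFP libraries, against 95 and 311, then 671 and 920, for C4b. At E18.5 C4a held 8 and 4 reads in +/+ and 55 and 15 in GFP/GFP libraries, against 43 and 70, then 21 and 49, for C4b. In E18.5 GFP/GFP replicate 1 C4a thus held more reads than C4b. Hepatocyte markers summed to 10.1 and 129 RPM in P1.5 +/+ and to 6.52 and 9.40 RPM in P1.5 GFP/GFP lungs, with Alb, the serum albumin gene, at 8, 1030, 13 and 29 reads in the same order. The +/+ library with more hepatocyte marker reads, replicate 2, was also the one with more C4b, and the part of liver RNA there was not tested. Without it the change of C4b was 2.79, and without +/+ replicate 1 it was 0.92.

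C2 and Cfb are neighbours on the minus strand of chromosome 17. Cfb spans 34856374 to 34862518 (mm10), and the table carries 2 rows with C2 in their name. The row C2.1 (34856412 to 34859310) lies wholly inside Cfb and held 30.4% to 99.2% of the number of Cfb reads, so it was not used for C2. The row C2.2 (34862604 to 34898265) overlaps the RefSeq gene C2 (34862602 to 34882100) by 19497 bases and does not touch Cfb. It was used as C2, although it also overlaps Zbtb12 on the other strand. A further row, Gm20547, spans both genes (34856412 to 34882042) and held 93.5% to 99.5% of the summed reads of C2.2 and Cfb in every library. C2 and Cfb share no 36-base stretch.

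C2, which supplies the protease part of the classical C3 convertase, had 25.1 and 20.7 RPM in +/+ and 11.6 and 19.1 RPM in GFP/GFP lungs at E18.5. At P1.5 it had 70.1 and 75.2 RPM in +/+ and 24.8 and 31.3 RPM in GFP/GFP lungs. Both P1.5 GFP/GFP libraries were far below both +/+ libraries. The change at P1.5 was -1.38 on the log2 scale (SE 0.37, 2.61-fold lower, 95% interval -2.25 to -0.51), with the smallest unadjusted p of the 9, 0.00642, and a limma adjusted p of 0.309. With a pseudocount of 1 RPKM, which shrinks changes of low values, it was -0.77.

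Cfb, which encodes factor B, had 5.46 and 5.71 RPM in +/+ and 1.24 and 5.16 RPM in GFP/GFP lungs at E18.5. At P1.5 it had 16.5 and 20.4 RPM in +/+ and 26.6 and 36.9 RPM in GFP/GFP lungs, so the groups were apart in the opposite direction to C2. The change was 0.77 (SE 0.61, 1.71-fold, limma adjusted p 0.697).

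The ratio of C2 to Cfb within a library does not depend on how libraries are scaled. There were 4.60 and 3.62 reads of C2 per read of Cfb in E18.5 +/+, 9.35 and 3.71 in E18.5 GFP/GFP, and 4.25 and 3.70 in P1.5 +/+ libraries. In P1.5 GFP/GFP libraries there were 0.933 and 0.847. Only in these did Cfb hold more reads than C2, and their ratios lay below those of the other 6 libraries.

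**Figure D3:**
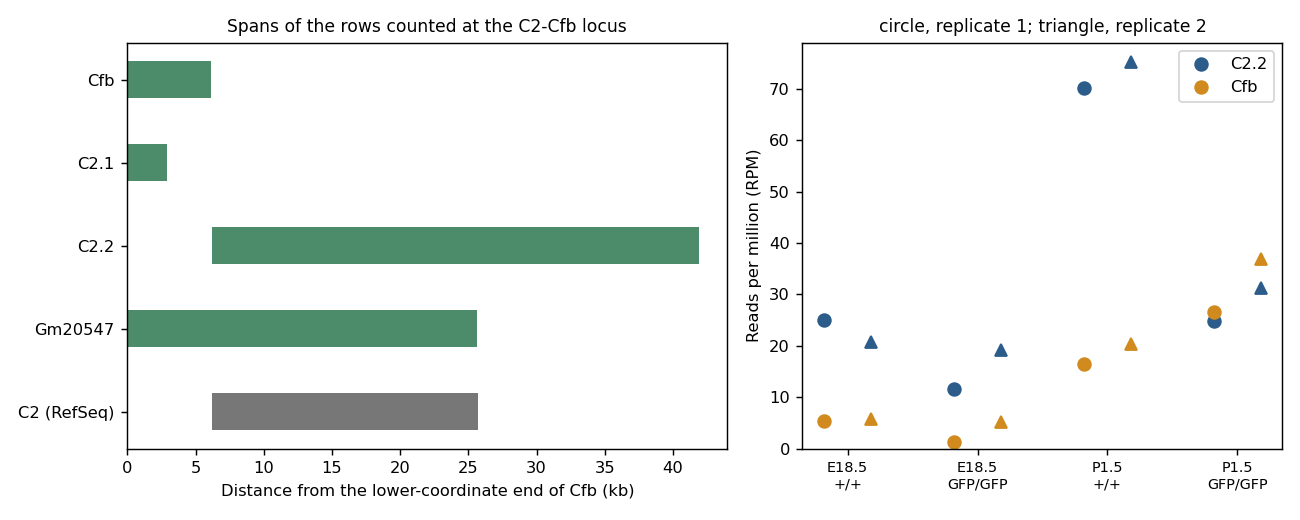
The left panel draws to scale the spans of the deposited rows at the C2 and Cfb locus and of RefSeq C2 (x axis, kilobases from the lower end of Cfb). The right panel plots RPM (y axis, linear) of C2.2 and Cfb in the 8 libraries by group, where C2.2 is above Cfb in all libraries but those of P1.5 GFP/GFP, at 24.8 against 26.6 and 31.3 against 36.9 RPM.

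C3, on which all routes converge, lies at 57203970 to 57228136 on the minus strand of chromosome 17 (mm10). Its promoter is shown because C3 was the member with the highest level per transcript length in +/+ lung and held a match to a searched motif, in capitals: TTGCGAAA, at positions -45 to -38 from the start, the reverse strand form of TTNNGCAA, a pattern of the kind bound by C/EBP factors.
C3, chr17:57228137-57228236, GRCm38.p6, minus strand: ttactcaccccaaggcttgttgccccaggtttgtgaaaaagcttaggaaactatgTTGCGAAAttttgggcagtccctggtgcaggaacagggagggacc
TTNNGCAA is in 10.8% of all promoters in the RefSeq table, and it was in 1 of the 5 members listed there. TATAAA was found in C3 from 15 to 20 bases after the start.

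In +/+ lungs C3 went from 156 and 189 RPM at E18.5 to 655 and 676 RPM at P1.5. In GFP/GFP lungs it went from 19.3 and 116 RPM to 374 and 430.4 RPM. GFP/GFP libraries were below +/+ libraries at both stages, with the P1.5 replicates close together and the E18.5 GFP/GFP replicates far apart. The change at P1.5 was -0.73 (SE 0.71, 1.66-fold lower, limma adjusted p 0.761), and at E18.5 it was -1.86 (SE 0.71, unadjusted p 0.0313, limma adjusted p 0.9998). Without the E18.5 GFP/GFP library that stood apart the latter was -0.56. Scgb1a1, the club cell secretoglobin gene, had 1571 reads in that library against 17832 to 29018 in the other E18.5 libraries, and its part in the C3 value was not tested.

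The receptor genes were expressed at low levels, and the replicates of the P1.5 groups lay far apart. C3ar1, the C3a receptor gene (chromosome 6, 122847138 to 122856161, minus strand), had 5.11 and 5.04 RPM in +/+ and 5.64 and 4.86 RPM in GFP/GFP lungs at E18.5, then 2.30 and 6.37 RPM in +/+ and 3.24 and 6.05 RPM in GFP/GFP lungs at P1.5. C5ar1, the C5a receptor gene (chromosome 7, 16246743 to 16259540, minus strand), had 5.93 and 5.71 RPM, then 3.52 and 6.53 RPM at E18.5, and 4.51 and 12.6 RPM, then 8.50 and 16.1 RPM at P1.5. In both P1.5 groups replicate 2 had more of either receptor than replicate 1, and the genotypes overlapped. Changes at P1.5 were 0.21 for C3ar1 (SE 0.55, limma adjusted p 0.8996) and 0.63 for C5ar1 (SE 0.59, limma adjusted p 0.751), with 95% intervals of -1.06 to 1.48 and -0.74 to 2.00. Without P1.5 +/+ replicate 1 they turned to -0.53 and -0.11, and without P1.5 GFP/GFP replicate 2 that of C3ar1 turned to -0.24.

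The upstream sequence of C3ar1 is shown for its match to the pattern of GGG, 3 bases of any kind and TTCC, of the kind bound by NF-kB, found as GGAAAGGCCC on the reverse strand at positions -14 to -5 from the start and written in capitals.
C3ar1, chr6:122856158-122856257, GRCm38.p6, minus strand: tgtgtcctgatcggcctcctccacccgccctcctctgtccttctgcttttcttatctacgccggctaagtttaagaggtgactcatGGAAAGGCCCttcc
That pattern is in 5.56% of all promoters, and TATAAA was also found in C3ar1 at positions -235 to -230. C5ar1, the remaining member in the table, held none of the 5 motifs, and C1qa, C2, C4b and Cfb were not matched there.

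Before birth the complement genes lay mostly below +/+ in GFP/GFP lungs, and this rested on replicate 1 of GFP/GFP, which had the lowest E18.5 level of 8 of the 9 genes. By limma 0 of 9 were called (0.0192% of all genes), C3 being the only member with an unadjusted p under 0.05 (4.37% of all genes, 683), and voom called 0 genes. Both GFP/GFP libraries were below both +/+ libraries for C3, C2 and Cfb (3 of 9, against 9.46% of all genes) and above both for 0 of 9 (26.5% of all genes). The median change of the 9 was -0.54 on the log2 scale against 0.09 over all genes.

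Without GFP/GFP replicate 1 the median of the 9 at E18.5 was 0.00057, and the changes of C4b, C1qa, C1qb, C1qc and C5ar1 turned to 0.00, 0.18, 0.40, 0.25 and 0.17. Those of C3, C2 and Cfb were then -0.56, -0.25 and -0.11. The change of C3ar1 was 0.04 with all libraries and -0.06 without that library, and its sign also turned under median centring (-0.16) and quantile normalization (-0.20).

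Whether the genotype difference itself changed with stage was tested as an interaction in the same fit. It was 2.64 for C4b (unadjusted p 0.0374, limma adjusted p 0.450) and 1.92 for Cfb (limma adjusted p 0.507). It was between 0.16 and 1.13 for C3ar1, C1qc, C1qa, C5ar1, C3 and C1qb, and -0.77 for C2. By limma 0 of 15627 genes (0%) passed the adjusted threshold and 1599 had an unadjusted p under 0.05. The median of the 9 was 0.91 against -0.33 over all genes, and without E18.5 GFP/GFP replicate 1 it was 0.27, with C3 at -0.17.

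From E18.5 to P1.5 C4b and Cfb rose in GFP/GFP lung. C4b rose by 4.96 on the log2 scale (SE 0.74, 31.0-fold, limma adjusted p 0.0309) and Cfb by 3.63 (SE 0.61, 12.4-fold, limma adjusted p 0.0359). The size for C4b rests on 21 and 49 reads at E18.5, where C4a, whose reads may be misplaced with those of C4b, held 55 and 15. Over the other settings of the fit the change of C4b ran from 1.46, with a pseudocount of 1 RPKM, to 5.63, and that of Cfb from 2.04 to 4.31. These were 2 of the 9 genes called, where 4.55% of all genes (711) were called. Increases that missed the threshold were 3.08 for C3, 2.30 for C1qa, 1.48 for C1qb, 1.37 for C1qc, 1.29 for C5ar1 and 0.91 for C2, with limma adjusted p-values of 0.0512, 0.0564, 0.0593, 0.0651, 0.160 and 0.129. Both P1.5 libraries were above both E18.5 libraries for 8 of 9 genes (18.7% of all genes) and below for 0 of 9 (48.5%). C3ar1 was the exception, at -0.24, and turned to 0.43 under median centring and 0.50 under quantile normalization.

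Both calls depended on single libraries. Without E18.5 GFP/GFP replicate 1, P1.5 GFP/GFP replicate 1 or P1.5 GFP/GFP replicate 2, the change of C4b was 4.17, 5.02 and 4.90 and that of Cfb was 2.60, 3.87 and 3.40, and neither passed (limma adjusted p 0.120 to 0.190). Over all genes 0, 0 and 1 passed without those libraries and 2449 without E18.5 GFP/GFP replicate 2, against 711 with all of them. With no filter on low values the limma adjusted p of Cfb was 0.0569.

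In +/+ lung the same 8 genes had higher means after birth, and by limma 0 of 9 were called (0.0576% of all genes, 9 genes), while 5 of the 9 had an unadjusted p under 0.05 against 11.8% of all genes (1850), and voom called 0 genes. The changes were 2.32 for C4b, 1.96 for C3, 1.71 for Cfb, 1.67 for C2 and 1.42 for C1qa, then 0.60 for C1qc, 0.38 for C5ar1, 0.35 for C1qb and -0.41 for C3ar1. C2 had the smallest limma adjusted p, 0.175. Both P1.5 libraries lay above both E18.5 libraries for 7 of 9 genes (27.4% of all genes) and below for 0 of 9 (28.2%), and the median was 1.42 against -0.15 over all genes. Without P1.5 +/+ replicate 2 the limma adjusted p of C2 was 0.0488, with a change of 1.62.

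**Figure D4:**
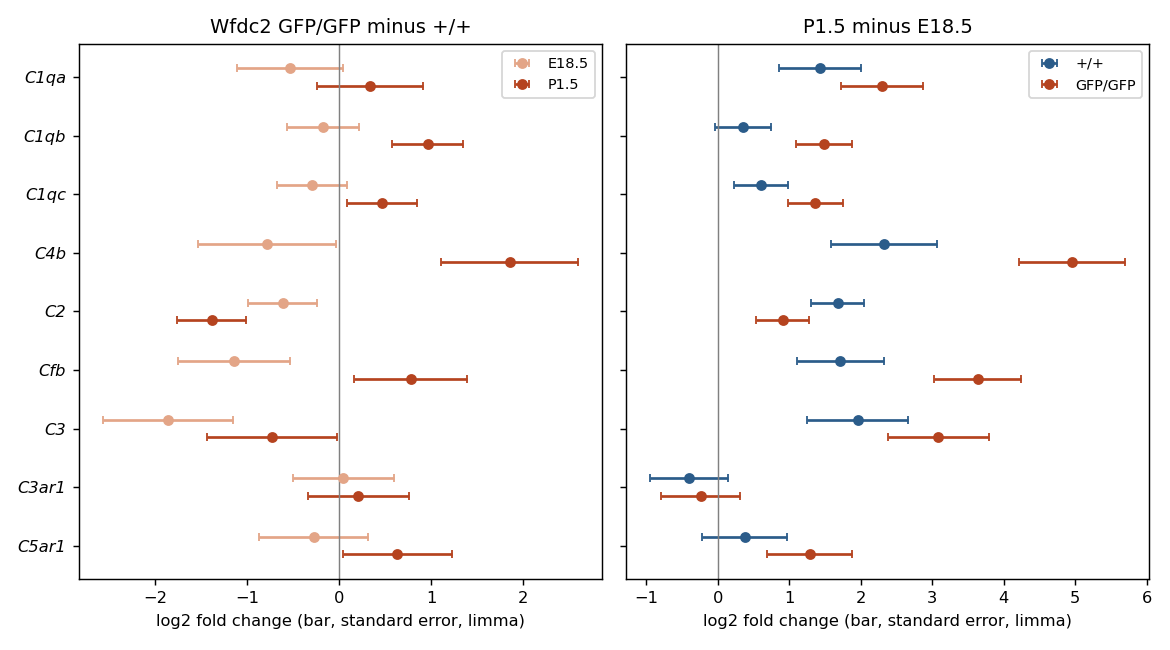
Points are log2 fold changes of the 9 complement genes (x axis) with bars of 1 standard error from limma. On the left, GFP/GFP minus +/+ is drawn at E18.5 and P1.5, with C2 at -1.38 and C4b at 1.85 the extremes at P1.5, and on the right P1.5 minus E18.5 is drawn in each genotype, with C4b (4.96) and Cfb (3.63) farthest from 0 in GFP/GFP lung.

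Levels of different genes were compared as RPM per kilobase of the longest annotated transcript (mean ± SD, n = 2). In +/+ lung at P1.5 C3 was the most abundant at 129.6 ± 2.82, followed by C1qa (61.1 ± 39.0), C1qb (30.5 ± 1.51), C2 (27.5 ± 1.38) and C1qc (25.6 ± 1.47). Cfb (6.70 ± 0.993), C5ar1 (3.38 ± 2.26), C4b (1.89 ± 1.53) and C3ar1 (1.01 ± 0.669) came last. In this order C2 and C1qc overlapped, and so did each neighbouring pair among C5ar1, C4b and C3ar1.

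In GFP/GFP lung at P1.5 the order began with C3 (78.3 ± 7.83), C1qa (69.7 ± 14.6) and C1qb (59.3 ± 3.27), and each overlapped its neighbour. C1qc (35.5 ± 3.36) followed, then Cfb (11.5 ± 2.65) and C2 (10.6 ± 1.73), which overlapped, and C4b (5.62 ± 0.326) and C5ar1 (4.84 ± 2.105), which overlapped too. C3ar1 (1.08 ± 0.462) was again last. C4b was last in both groups at E18.5, at 0.325 ± 0.131 in +/+ and 0.208 ± 0.146 in GFP/GFP lung. In E18.5 +/+ lung C3 led at 33.6 ± 4.54 and C1qb followed at 23.9 ± 0.143, with no overlap between any neighbours in the order.

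Over the 8 libraries C1qc and Cfb were the members that moved most closely together (Pearson's r 0.98 of log2 RPKM, which shares the library totals), and C3ar1 had a negative r with every member except C5ar1 (0.38). The genes outside the set most like C3 were Gp5, Pllp, Scgb1a1, Eya2 and Gp9 (r 0.98 each). Gp5 and Gp9 encode platelet glycoproteins, and Scgb1a1 marks club cells. Among those most like C1qa were Tmem160, S100a16, 2810428I15Rik and Scand1 (r 0.994 to 0.996), none of them on the macrophage marker list. Those most like C3ar1 were Thumpd3, Bcl2l2, Dpysl3, Heg1 and Gbp8 (r 0.98 each). Each of these sets was picked from all genes tested for its r over the same 8 libraries, so the values are descriptive.

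Of 45 other complement genes found in the table, 30 passed the filter and 4 were at or under 3 reads in every library (C8b, C9, Cfhr2 and Cr2). Between genotypes at P1.5 19 were higher and 11 lower, where 38.8% of all genes were higher, and the median was 0.14. By limma 0 were called, 3 were above in both libraries (12.6% of all genes) and 4 below (26.9%). At E18.5 12 were higher and 18 lower, where 59.2% of all genes were higher, 0 were called, and the median was -0.07 against 0.09 over all genes. Then 6 were above in both libraries (26.5% of all genes) and 5 below (9.46%). From E18.5 to P1.5 in GFP/GFP lung 1 was called, Fcna, a ficolin gene of the lectin route, which went from 2.82 and 1.95 RPM to 6.82 and 7.31 RPM (1.59 on the log2 scale, limma adjusted p 0.0477). Fcna lost this call in the same 3 fits as C4b and Cfb.

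Starters of the classical and lectin routes, 14 tested with C1q, C4b and C2 included, were mostly higher in P1.5 GFP/GFP lung (11 of 14, 0 called, median 0.42, against 38.8% of all genes higher). C1ra, which encodes the C1r protease, had 17.4 and 25.8 RPM in +/+ and 25.8 and 45.6 RPM in GFP/GFP lungs at P1.5 (0.69, limma adjusted p 0.592). The alternative route gene Cfp, for properdin, had 37.2 and 23.7, then 33.4 and 26.9 RPM (0.01, limma adjusted p 0.992).

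Among 4 terminal genes tested, C6, a component of the membrane attack complex, had 13.0 and 22.6 RPM in +/+ and 54.7 and 66.9 RPM in GFP/GFP lungs at P1.5, and 32.8 and 34.9, then 4.004 and 21.5 RPM at E18.5. Its groups did not overlap at either stage and lay in opposite order (1.82 and -1.87, limma adjusted p 0.437 and 0.9998). Hc, which encodes C5, the precursor of the C5a peptide, had 187 and 500.2 RPM in +/+ and 408 and 530.3 RPM in GFP/GFP lungs at P1.5 (0.60, limma adjusted p 0.788).

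Of 9 regulators tested, 3 were higher and 6 lower in P1.5 GFP/GFP lung, 0 called, with 1 above in both libraries and 4 below, where 38.8% of all genes were higher, 12.6% above in both and 26.9% below in both. Cd46, which encodes a membrane cofactor for the breakdown of C3b and C4b, had 2.85 and 7.55 RPM in +/+ and 0.648 and 1.40 RPM in GFP/GFP lungs (-2.29, limma adjusted p 0.344). Cd59a, an inhibitor of the membrane attack complex, had 19.8 and 26.2, then 8.63 and 10.9 RPM (-1.23, limma adjusted p 0.340). Serping1, the C1 inhibitor gene, had 295 and 258, then 174 and 144 RPM (-0.80, limma adjusted p 0.432). Of 8 receptors tested, 7 were higher and 1 lower, 0 called and none apart in both libraries.

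Other cell type lists were read beside the stage and genotype results. All 12 neutrophil markers were tested and higher in mean at P1.5 than at E18.5 in both genotypes. In GFP/GFP lung 7 of them were called (4.55% of all genes). The 12 summed to 60.5 to 98.2 RPM at E18.5 and to 682 to 1903 RPM at P1.5. In P1.5 GFP/GFP lungs they summed to 939 to 1472 RPM, within the +/+ range, and Ly6g was without reads in P1.5 GFP/GFP replicate 1 and Elane in P1.5 +/+ replicate 2. Lung epithelium markers, all 8 tested and none without reads, summed to 8694 to 24189 RPM at E18.5 and to 35272 to 76896 RPM at P1.5. Sftpc gave most of this sum in every library, and the list did not rise as a whole. From E18.5 to P1.5 3 of the 8 were higher and 5 lower in +/+ lung (median -0.10), and 6 higher and 2 lower in GFP/GFP lung (median 0.19). Of 9 hepatocyte markers tested, 3 were below in both P1.5 GFP/GFP libraries, against 26.9% of all genes. Among these 3, Fgb was without reads in both P1.5 GFP/GFP libraries and also in P1.5 +/+ replicate 1. Its order against that +/+ library came from the library totals alone. Serpina1a had reads only in P1.5 +/+ replicate 2. All 6 markers of endothelium and mesenchyme were tested, had reads in every library and were lower in mean at P1.5 in both genotypes. In GFP/GFP lung 5 of them were lower in both P1.5 libraries (48.5% of all genes) and 1 was called (4.55% of all genes). This was Pdgfra, a receptor gene for platelet-derived growth factor (-2.22, limma adjusted p 0.0461). The 6 summed to 3570 to 4999.98 RPM at E18.5, to 992 and 5318 RPM in P1.5 +/+ and to 1392 and 2067 RPM in P1.5 GFP/GFP lungs. All 6 heart muscle markers had higher means in GFP/GFP lung at both stages, with medians of 0.80 at P1.5 and 1.05 at E18.5 and 0 called. Among them Nppa held 542 and 1 reads in +/+ and 1 and 4661 in GFP/GFP libraries at E18.5, so its direction there rested on GFP/GFP replicate 2. At P1.5 Nppa held 10 and 1, then 39 and 26 reads. The sums of the 6 were 107 and 218 RPM in +/+ and 175 and 623 RPM in GFP/GFP lungs at E18.5. At P1.5 the sums were 233 and 584, then 513 and 719 RPM. Each pair of sums is given from the lower library. Of 7 lymphocyte markers, 4 passed the filter and were higher in mean at P1.5 in both genotypes. In GFP/GFP lung 2 of them were called (4.55% of all genes), Cd3g and Cd79a. Cd3g had 1 and 0 reads in the E18.5 GFP/GFP libraries, under the limit of detection, so the size of its rise is not known. The 7 summed to 1.444 to 2.02 RPM at E18.5 and to 4.79 to 22.7 RPM at P1.5. Cd3e and Cd8a were without reads in P1.5 +/+ replicate 1, and Cd3e also in E18.5 GFP/GFP replicate 1. The part of all these cells in the complement values was not tested.

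**Figure D5:**
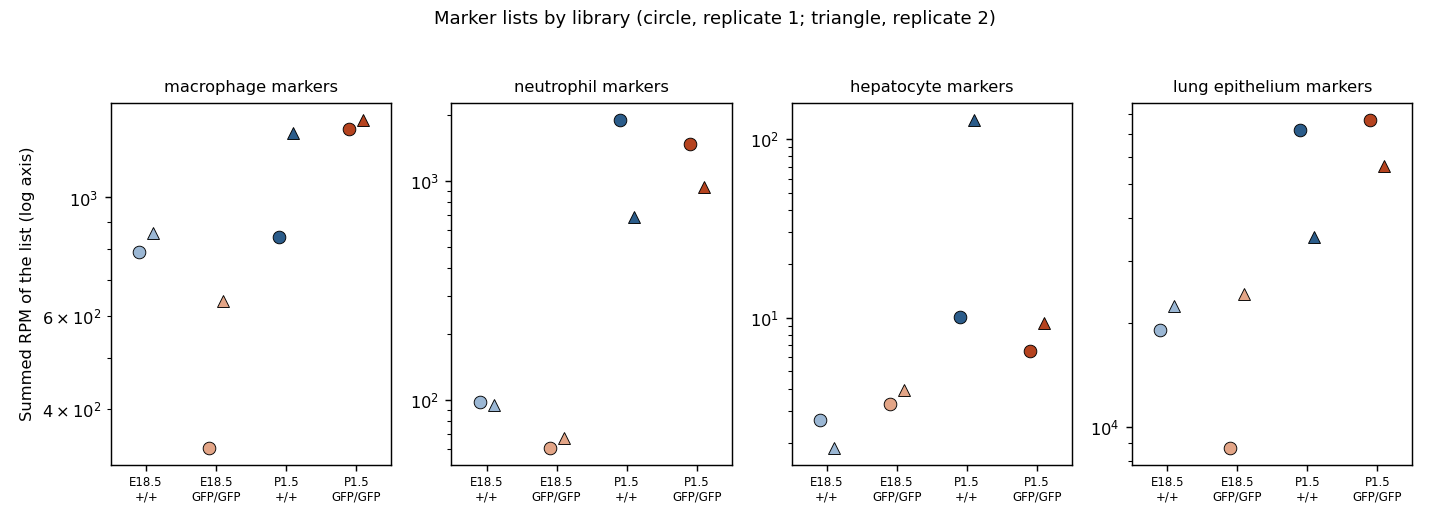
Summed RPM (y axis, log scale, set per panel) of the macrophage, neutrophil, hepatocyte and lung epithelium marker lists is plotted for the 8 libraries by group (x axis), with a circle for replicate 1 and a triangle for replicate 2. Neutrophil and epithelium sums are higher in all P1.5 than in all E18.5 libraries, and the hepatocyte sum of P1.5 +/+ replicate 2 is highest at 129 RPM. Sftpc gives most of the epithelium sum in every library.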

How the data were processed

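Total RNA of mouse lung was sequenced in 8 libraries from duplicate animals. The paper names HiSeq and GAIIx instruments of Illumina as alternatives and does not say which library was run on which. Per the methods and the submitters' processing notes, the authors called bases with CASAVA 1.8, removed read ends past 36 bases, trimmed reads with Trim Galore 0.4.0, mapped them to mm10 with TopHat2 2.1.1 and deposited log2 RPKM from SeqMonk. Kilobases are the gene's whole span, so unspliced reads and long genes weigh on levels between genes. How strand was counted is not given in the sources used here. Genes with no read are listed at what 0.9 read would give. Whole reads were recovered from the step of each library (100% of values under 1000 reads whole within 0.02).

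The 4 groups come from the sample titles. Genes averaging 0.05 RPKM or more entered a limma 3.58.1 fit (R 4.3.3, 1 mean per group, 4 residual degrees of freedom, prior with a trend, two-sided, Benjamini-Hochberg, threshold 0.05). The fit was tested on simulated data. Contrasts were genotype at each stage, their difference, and stage in each genotype. P-values measure the spread between these animals only. The members, gene lists and markers were chosen with earlier results of these data known. Named genes are the members, other complement genes under the threshold or apart by over 2-fold at P1.5, C4a, Wfdc2, the 5 genes most like C3, C1qa and C3ar1, and abundant markers; 1 gene most like C1qa is not reported here. C1ra, Cfp, Hc, Serping1, Csf1r, Cd68, Fcgr1, Mertk, Cx3cr1, Pdgfra, Cd3g, Cd79a, Ly6g, Serpina1a and the sex-linked genes were named after their values were seen. Alternatives were pseudocounts of 0.1 and 1 RPKM, no filter or 0.5 RPKM, median centring, quantile normalization, only the 4 libraries compared, a replicate block, voom, length of the longest transcript, and each library left out. Tables and figures used Python 3.11.15, numpy 2.4.6, pandas 2.3.3 and matplotlib 3.10.9. Promoters are RefSeq's (GRCm38.p6). Protein sequences were not analysed here.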

Additional observations from a re-analysis of the deposited data

Results flagged for a closer look

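3 complement genes had genotype differences that pointed in opposite directions at the 2 stages, with no overlap between the libraries of the genotypes at either stage. These were 3 of the 39 complement genes tested (7.69%), and the same held for 1550 of all 15627 genes tested (9.92%). For Cfb the change was 0.77 at P1.5 and -1.14 at E18.5, and the difference between them was 1.92 on the log2 scale (limma adjusted p 0.507), and 0.89 without E18.5 GFP/GFP replicate 1. For C6 the changes were 1.82 and -1.87, and their difference was 3.69 (limma adjusted p 0.300). For Cd46 the changes were -2.29 and 1.31, and their difference was -3.59 (limma adjusted p 0.304). None of these differences passed the adjusted threshold of 0.05, and E18.5 GFP/GFP replicate 1, which stood apart, enters each of them. Groups of 2 libraries are too small for a check of outlying values.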

How the results depend on the processing

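Leaving out a library makes an arm of 1 library, which is then taken to vary like the other groups. Over these fits the count of genes called ran from 1 to 24 for genotype at P1.5, 0 to 1 at E18.5, 0 to 2 for their difference, 0 to 2166 for stage in +/+ and 0 to 2449 for stage in GFP/GFP lung. The median of the 9 genes ran from 0.37 to 0.93, -0.98 to 0.00057, 0.27 to 1.58, 1.12 to 1.43 and 0.91 to 2.05 in the same order. Single members turned sign in some of these fits, at P1.5 between -0.36 and 1.04 for C1qa, -0.53 and 0.94 for C3ar1 and -0.11 and 1.37 for C5ar1, at E18.5 between -1.57 and 0.00 for C4b, -1.25 and 0.18 for C1qa, -0.75 and 0.40 for C1qb, -0.84 and 0.25 for C1qc, -0.064 and 0.15 for C3ar1 and -0.72 and 0.17 for C5ar1, in the difference between -0.17 and 2.42 for C3 and -0.57 and 0.90 for C3ar1, with stage in +/+ between -1.14 and 0.33 for C3ar1 and -0.37 and 1.12 for C5ar1, and with stage in GFP/GFP between -0.69 and 0.21 for C3ar1. C3ar1 also turned under median centring and quantile normalization, to -0.16 and -0.20 at E18.5 and to 0.43 and 0.50 for stage in GFP/GFP lung. Counts of genes called at P1.5 were 11 with a pseudocount of 0.1 RPKM, 5 with 1 RPKM, 21 with no filter, and 0 with centring, quantile normalization, the 4 libraries alone or voom. At E18.5 they were 6 (0.1 RPKM), 22 (no filter), 1 (filter at 0.5 RPKM), 0 (centring, quantile normalization, voom) and 1 (4 libraries), and the median of the 9 was -0.20 with 1 RPKM. For the difference the median was 1.32 with centring and 1.18 with quantile normalization. For stage in +/+ lung counts were 16 (0.1 RPKM), 17 (1 RPKM), 35 (no filter), 52 (filter at 0.5 RPKM), 5 (centring), 49 (quantile normalization) and 0 (4 libraries, voom), with medians of 0.54 (1 RPKM), 1.69 (centring) and 1.01 (the 8 exact symbols, chosen after seeing the data). For stage in GFP/GFP lung counts were 237 (1 RPKM), 349 (no filter), 1279 (centring, 849 higher and 430 lower against 252 and 459), 3036 (4 libraries) and 129 (voom), with medians of 2.16 (centring), 1.92 (quantile normalization) and 1.89 (the 8 exact symbols). Apart from fewer genes or libraries in a fit, the cause was not tested. Over these settings and the block, the limma adjusted p of C4b for stage in GFP/GFP lung ran from 0.00138 to 0.0470, and that of Cfb from 0.00595 to 0.0569, the latter with no filter.

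With the replicate number as a block, 9 genes were called at P1.5, 1 at E18.5, 0 for stage in +/+ and 125 for stage in GFP/GFP lung. Same-numbered libraries of the genotypes deviated together with r of 0.23 at E18.5 and 0.21 at P1.5, and those of the stages with -0.02 in +/+ and -0.01 in GFP/GFP lung. The number is not stated to mark a litter or a day.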
